A study of Homo sapiens with 18 samples.

Results

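The 56 genes described here lie on 21q, the long arm of human chromosome 21, and were chosen in map order because neighbouring genes were lower in T15-2, a subline of HCC827, than in the other lines. HCC827 is a line of non-small cell lung cancer with an activating EGFR mutation, and ER3 and T15-2 are its erlotinib-resistant sublines; erlotinib blocks the tyrosine kinase of EGFR. After overnight starvation, cells of every line received erlotinib at 1 µM or DMSO, the solvent control, for 12 h. This gave 6 groups of 3 arrays, 18 arrays in all: HCC827, ER3 and T15-2, each with DMSO and each with erlotinib. The labels do not say whether ER3 or T15-2 is a single clone. They do not state that replicates are separate cultures either, and p-values therefore measure only the spread between these samples. In bulk RNA, fewer cells of a type and less RNA per cell cannot be told apart. Since the arrays of T15-2 chose the genes, the differences of the listed genes between T15-2 and the other lines are a description of the choice and carry no test. The listed genes are tested for ER3 against HCC827, for erlotinib against DMSO within each line, and for the difference of the erlotinib response between lines. Genes outside the list, such as markers and pathway partners, are also tested for T15-2 against the other lines. The T15-2 arrays enter both the choice and the tests of the T15-2 response. The HCC827 and ER3 arrays that T15-2 was set against may have entered the choice too. Counts of listed genes called in the tests may therefore not be independent of it.

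The long arm of chromosome 21 carries genes of unrelated function whose dosage is raised together in Down syndrome. It holds a cluster of 4 class II cytokine receptor genes, IFNAR1, IFNAR2, IFNGR2 and IL10RB, whose products bind type I interferon, interferon gamma, interleukin 10 family cytokines and type III interferon, and signal through JAK kinases and STAT transcription factors. DNA copy number was not measured here.

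Several of the genes share a promoter region with a neighbour, so that 1 stretch of DNA lies upstream of both, and these stretches are shown because they let neighbours be compared gene by gene. The sequences are from RefSeq on build GRCh38.p14 and run from 250 bases before to 50 bases after the start of the named gene. They are printed 5′ to 3′ in lower case, and capitals mark a match to CCGGAAGT, the core recognised by ETS family transcription factors, on either strand (printed as ACTTCCGG on the other strand).
GABPA (chr21:25734722-25735021, + strand): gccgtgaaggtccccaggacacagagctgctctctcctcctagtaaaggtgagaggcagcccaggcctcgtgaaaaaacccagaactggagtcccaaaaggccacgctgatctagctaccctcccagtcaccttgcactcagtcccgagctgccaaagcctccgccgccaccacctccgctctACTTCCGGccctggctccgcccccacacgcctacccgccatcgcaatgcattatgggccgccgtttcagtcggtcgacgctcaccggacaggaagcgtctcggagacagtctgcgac
SON (chr21:33542788-33543087, + strand): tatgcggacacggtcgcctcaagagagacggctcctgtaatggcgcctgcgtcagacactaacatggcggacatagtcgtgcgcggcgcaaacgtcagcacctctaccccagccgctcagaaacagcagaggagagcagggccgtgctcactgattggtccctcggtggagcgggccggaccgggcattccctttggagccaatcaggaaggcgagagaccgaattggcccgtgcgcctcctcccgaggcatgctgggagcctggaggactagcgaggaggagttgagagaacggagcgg
TTC3 (chr21:37073004-37073303, + strand): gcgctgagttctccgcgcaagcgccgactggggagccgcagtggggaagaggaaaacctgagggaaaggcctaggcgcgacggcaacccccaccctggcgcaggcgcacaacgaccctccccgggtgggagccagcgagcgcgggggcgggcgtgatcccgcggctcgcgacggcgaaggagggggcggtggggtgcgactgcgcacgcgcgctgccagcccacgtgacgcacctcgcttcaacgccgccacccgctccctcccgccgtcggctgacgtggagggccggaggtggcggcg
SLC5A3 (chr21:34073328-34073627, + strand): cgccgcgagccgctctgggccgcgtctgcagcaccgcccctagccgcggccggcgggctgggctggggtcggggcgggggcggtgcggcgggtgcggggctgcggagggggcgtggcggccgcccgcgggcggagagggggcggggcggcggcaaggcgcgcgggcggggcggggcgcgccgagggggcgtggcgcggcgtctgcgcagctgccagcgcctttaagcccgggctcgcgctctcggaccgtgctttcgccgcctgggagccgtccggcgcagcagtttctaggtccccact

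The GABPA stretch overlaps by 167 bases that of ATP5PF, which encodes a subunit of mitochondrial ATP synthase and runs the other way from a start 68 bases off. It holds 1 match to the ETS core, and GABPA itself encodes the DNA-binding subunit of an ETS family factor. The SON stretch overlaps by 248 bases that of GART, with starts 149 bases apart, and the TTC3 stretch overlaps by 282 bases that of PIGP, with starts 183 bases apart. SLC5A3 and MRPS6, the latter a mitochondrial ribosomal protein gene outside the list, have the same 300-base window and direction. Among the 43 listed genes with a RefSeq window, the core was found for 7 (GABPA, LTN1, USP16, GART, MORC3, VPS26C and TRAPPC10), which is 16.3% of them, against 9.57% of the 9598 genes measured on these arrays that have a window and 4.95% of all 27305 genes in the table. A gene was counted if any of its windows held the core. By window the shares were 9.33% of 75, 7.07% of 13948 and 4.14% of 35116, in the same order. A match is a description of letters and not of a bound site.

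Each array had 15698 to 17869 of 48803 probes above background, and within groups the arrays correlated between 0.991 and 0.997 across genes. Values are log2 normalized intensities, and 11820 genes were measured. All 8 lung epithelial markers were above background on the 18 arrays, with a summed intensity of 13098 to 14649 on T15-2 arrays and 20186 to 26426 on the others. Of the 8, 6 were called lower and 0 higher in T15-2 against HCC827 with DMSO, where 16.3% and 15.9% of all genes were. CDH1 differed by -1.92 ± 0.08 (SE) between T15-2 and HCC827 with DMSO (limma adjusted p = 5.8e-13) and EPCAM by -1.71 ± 0.20 (adjusted p = 2.0e-06). Of 6 immune markers 4 were measured. PTPRC was above background on 0 arrays and CD68 on all 18, and the summed intensity of the list was 2516 to 2870 in HCC827 and 3516 to 3904 in T15-2 with DMSO. CD68 was the 1 immune marker called higher in T15-2 (0.48 ± 0.08, adjusted p = 0.00016). Of 6 fibroblast markers 2 were measured, COL1A2, COL3A1, PDGFRB and THY1 were above background on 0 arrays, and the sums were 49.3 to 70.2 over all arrays. Of 3 endothelial markers PECAM1 was above background on all 18 arrays and CDH5 on 0, with sums of 95.9 to 174.4. Whether these markers bear on the T15-2 differences was not tested. EGFR differed by 0.18 ± 0.11 between ER3 and HCC827 with DMSO (adjusted p = 0.21) and by -0.51 ± 0.11 between T15-2 and HCC827 (adjusted p = 0.0014), and MET fell by 1.71 ± 0.23 with erlotinib in HCC827 (adjusted p = 6.6e-06). The number of arrays limits the precision.

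Of the 56 listed genes, 53 had a probe named in the annotation used here and 48 had a probe above background on at least 3 of the 18 arrays, 45 of them on all 18. CYYR1, BACH1, CLIC6, BACE2 and RRP1 had no probe above background on 3 arrays, and URB1, PDXK and AGPAT3 had no probe named here. With DMSO the median of the 48 measured genes differed by -0.45 on the log2 scale between T15-2 and HCC827, or 1.37-fold, against a median of 0.01 over all 11820 genes. The difference was negative for 44 of the 48. Against ER3 with DMSO the median difference was -0.33 and 42 were lower. With erlotinib it was -0.34 against HCC827 (41 lower) and -0.37 against ER3 (43 lower). These values chose the genes and support nothing further.

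The shift was similar on each array. Taken as the median deviation of the 48 genes from their HCC827 mean with DMSO, it was -0.45, -0.40 and -0.45 on the 3 T15-2 arrays with DMSO and -0.40, -0.45 and -0.55 on those with erlotinib. The 3 ER3 arrays lay at -0.14, -0.07 and -0.09 with DMSO and at -0.10, -0.14 and -0.16 with erlotinib, and the HCC827 arrays with erlotinib at -0.06, -0.07 and -0.07. No T15-2 array overlapped with an array of another line. The median of all genes on the same scale lay between -0.02 and 0.01 on every array. All 3 T15-2 arrays lay below all 3 HCC827 arrays with DMSO for 37 of the 48 genes (77.1%), against 24.1% of all genes. All 6 T15-2 arrays lay below the 12 other arrays for 12 genes (25%), against 3.54% of all genes. These were GABPA, APP, IFNAR2, IL10RB, MORC3, PIGP, VPS26C, DYRK1A, ETS2, BRWD1, HMGN1 and CBS, each read from its brightest probe. For IFNAR2 the other detected probe was not lower in T15-2 than in ER3 with DMSO (0.08). All 6 T15-2 arrays lay above the other 12 for 0 of the 48 genes, against 2.71% of all genes.

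The label does not hold for every gene of the list. SLC5A3 was higher in T15-2 than in HCC827 with DMSO, by 0.49 ± 0.12, and ADAMTS1 by 0.47 ± 0.14. The differences of ZBTB21 (0.04 ± 0.17), the homeobox gene PKNOX1 (0.00 ± 0.15), the transport complex subunit gene TRAPPC10 (-0.02 ± 0.11) and the endocytic scaffold gene ITSN1 (-0.10 ± 0.14) were under 1 SE. Other kept probes gave -0.43 for ITSN1 and -0.12 for PKNOX1, so that the size for ITSN1 depended on the probe. RUNX1, RIPK4 and HLCS, which attaches biotin to carboxylases, were lower than in HCC827 but not lower than in ER3, where the differences with DMSO were 0.29, 0.15 and 0.23. Of 14 genes with several probes above background on all 18 arrays, 12 had all such probes on the same side of 0. The 24 dimmer genes had a median difference of -0.46 and the 24 brighter genes one of -0.44. Between the DMSO and the erlotinib arrays the difference from HCC827 turned in sign for 5 genes, GART, RUNX1, WDR4, PKNOX1 and ICOSLG. For GART this held for its brightest probe only, as the other kept probe gave -0.49 and -0.005.

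**Figure D1:**
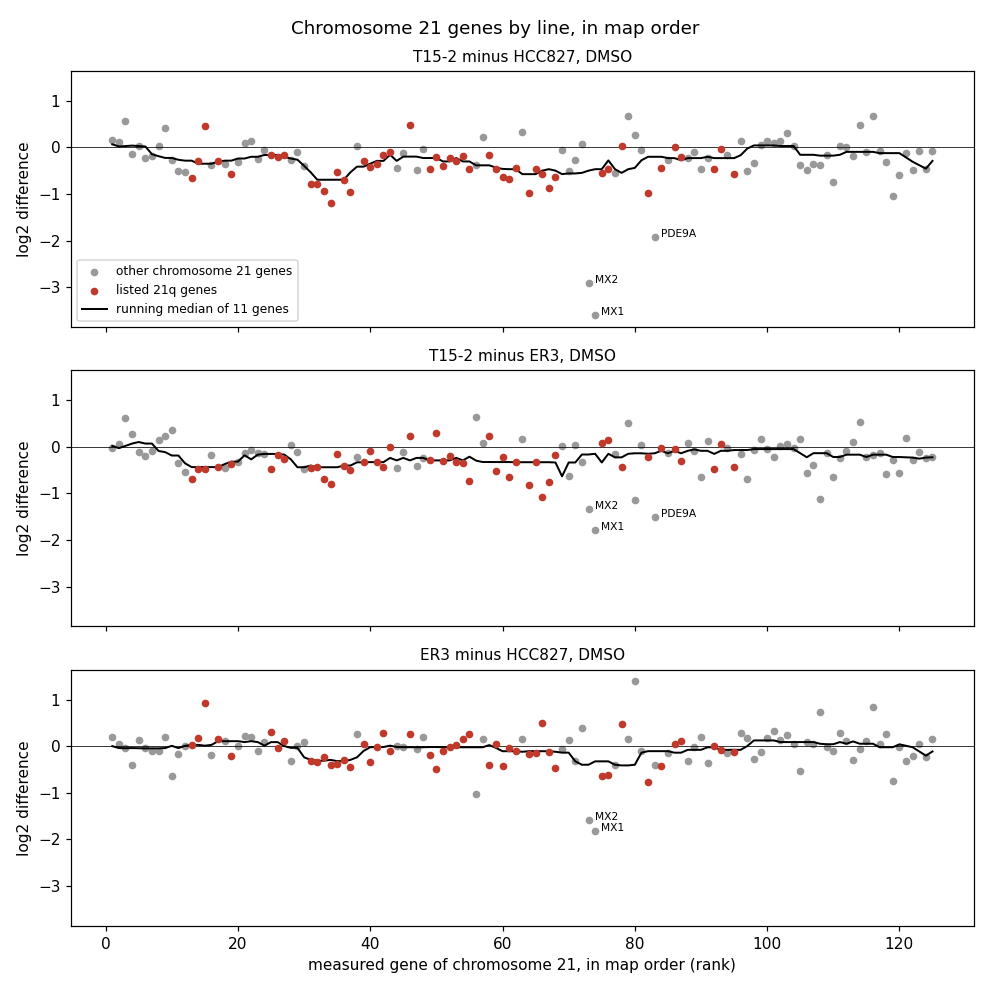
Log2 difference between lines with DMSO for the 125 measured genes of chromosome 21, in map order (x axis, rank), with the 48 measured listed genes in red, other genes in grey and the running median of 11 genes as a line. In T15-2 minus HCC827 the running median reaches -0.69 over the receptor cluster, and MX1, MX2 and PDE9A lie far below their neighbours.

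Along the map, the most lowered stretch was a run of 7 neighbouring listed genes, PAXBP1, SYNJ1, IFNAR2, IL10RB, IFNAR1, IFNGR2 and TMEM50B, with differences between -0.53 and -1.19 in T15-2 against HCC827 with DMSO. The running median of 11 genes was lowest there, at -0.69. Both are read from the brightest probe of each gene. Other kept probes gave -0.37 and -0.45 for PAXBP1, -0.04 for SYNJ1, -0.47 for IFNAR2, -1.41 for IL10RB and -0.07 for TMEM50B. The 35 measured chromosome 21 genes that lie between the listed ones but are not on the list had a median of -0.23, and 27 of them were lower. Among them, ATP5PO, a subunit of ATP synthase, differed by -0.43 and MRPS6 by -0.49. The 12 genes nearer the centromere than the first measured listed gene had a median of -0.06 (6 lower), and the 30 genes beyond the last measured one a median of -0.11 (19 lower). In the latter region the value depended on dim genes: over the 20 genes above background on all 18 arrays the median was -0.35 (17 lower), while near the centromere it was 0.02 over 9 genes (4 lower).

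Single genes departed from their neighbours. The interferon-induced GTPase genes MX1 and MX2 differed by -3.61 and -2.92 and the phosphodiesterase gene PDE9A by -1.92, whereas USP25 (0.57) near the centromere, ABCG1 (0.67), SLC19A1 (0.48) and COL6A1 (0.67) were higher in T15-2. Over whole chromosomes, chromosome 21 had the lowest median of 23 chromosomes in T15-2 against HCC827, at -0.27 over 125 genes with DMSO and -0.22 with erlotinib, and chromosome 7 had the highest, at 0.28 in both. Against ER3 with DMSO chromosome 6 was lowest, at -0.28, and chromosome 21 stood next at -0.22. In ER3 against HCC827 chromosome 21 lay at -0.02, chromosome 14 lowest at -0.21 and chromosome 6 highest at 0.28. These medians include the listed genes and are given with no test.

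**Figure D2:**
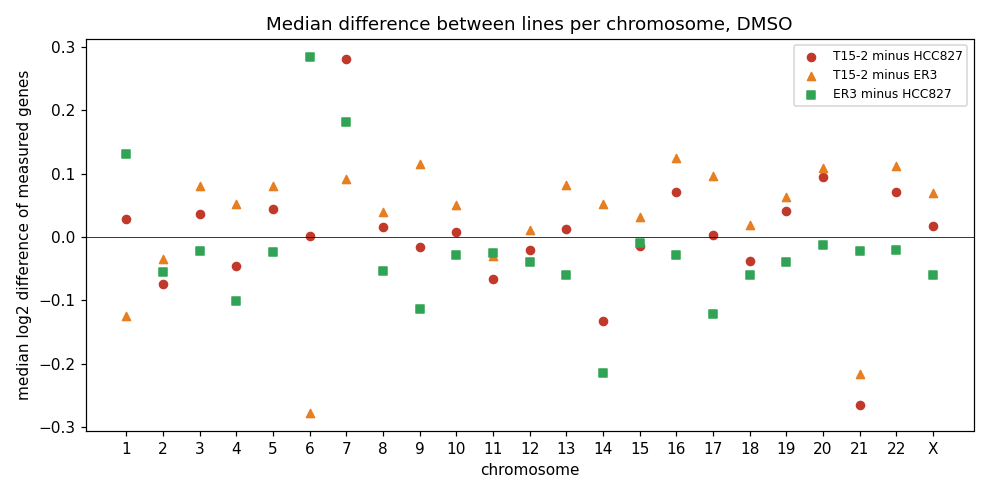
Median log2 difference of the measured genes of each chromosome (x axis) between lines with DMSO, 1 point per chromosome and pair of lines. Chromosome 21 is lowest in T15-2 minus HCC827 at -0.27 and near 0 in ER3 minus HCC827 at -0.02.

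The receptor genes held the largest single difference of the list. IL10RB, the shared chain of the interleukin 10, interleukin 22 and type III interferon receptors, measured 10.06, 10.19 and 10.27 on the HCC827 arrays with DMSO and 9.62, 9.77 and 9.92 on those of ER3. On the T15-2 arrays it measured 8.91, 9.00 and 9.03, and with erlotinib 9.46, 9.30 and 9.46. The 3 lines did not overlap with DMSO, and T15-2 was lowest, at a difference from HCC827 of -1.19 ± 0.09 or 2.29-fold. The other probe of IL10RB gave -1.41.

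IFNAR2, the high-affinity chain of the type I interferon receptor, measured 8.84, 8.80 and 8.76 in HCC827, 8.59, 8.61 and 8.49 in ER3 and 7.85, 8.00 and 7.76 in T15-2, all with DMSO. All 6 T15-2 arrays lay below the others, and the difference from HCC827 was -0.93 ± 0.08. The other detected probe of IFNAR2 gave -0.47 against HCC827 and 0.08 against ER3. The size of the difference from HCC827 and the sign of the difference from ER3 thus depended on the probe. IFNAR1, the partner chain, measured 7.74, 7.80 and 7.73 in HCC827, 7.53, 7.22 and 7.38 in ER3 and 7.18, 7.33 and 7.16 in T15-2. T15-2 differed from HCC827 by -0.53 ± 0.10 but overlapped with ER3. IFNGR2, the signalling chain of the interferon gamma receptor, measured 10.10, 10.02 and 10.11 in HCC827, 9.81, 9.86 and 9.69 in ER3 and 9.35, 9.40 and 9.41 in T15-2, again without overlap between the lines.

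In the tested comparison of ER3 with HCC827 with DMSO, all 4 receptor genes were called lower, where 19% of all genes were. IL10RB differed by -0.40 ± 0.09 (limma adjusted p = 0.0023), IFNAR1 by -0.38 ± 0.10 (0.0065), IFNGR2 by -0.29 ± 0.09 (0.019) and IFNAR2 by -0.24 ± 0.08 (0.034). With erlotinib IL10RB (-0.50 ± 0.09, adjusted p = 0.00022) and IFNAR1 (-0.36 ± 0.10, adjusted p = 0.0066) were called lower in ER3, where 23% of all genes were. The HCC827 and ER3 arrays may have entered the choice of these genes, so these counts may not be independent of it. Erlotinib raised IL10RB in HCC827 by 0.29 ± 0.09 (adjusted p = 0.020) and in T15-2 by 0.43 ± 0.09 (adjusted p = 0.0077). IFNGR2 fell with erlotinib in HCC827, from a mean of 10.08 to 9.62, by 0.46 ± 0.09 (adjusted p = 0.00057). It did not pass the test in ER3 (-0.06) or T15-2 (0.04), and its response differed from that of HCC827 by 0.40 ± 0.13 in ER3 (adjusted p = 0.036) and by 0.50 ± 0.13 in T15-2 (adjusted p = 0.016).

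**Figure D3:**
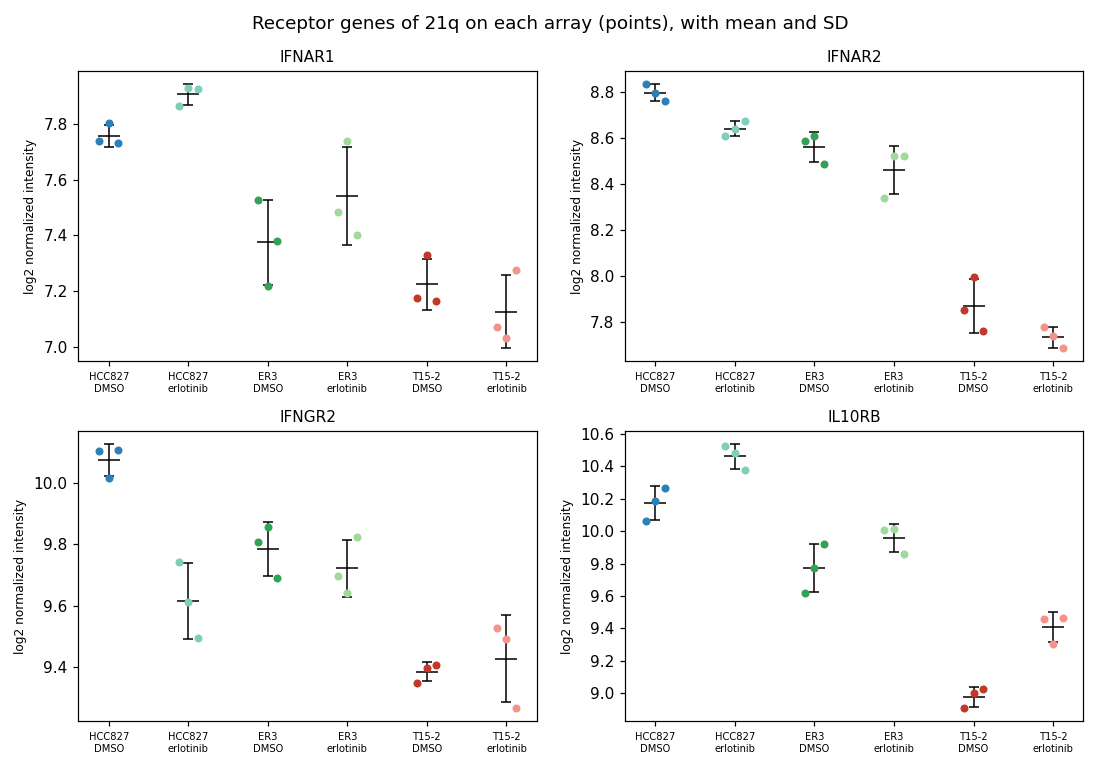
Log2 normalized intensity (y axis) of the 4 class II cytokine receptor genes of 21q on each array (points) in the 6 groups (x axis), with the mean and SD of 3 arrays. The T15-2 arrays lie below all others for IFNAR2 and IL10RB, and IFNGR2 with erlotinib overlaps between T15-2 and HCC827.

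Receptor and signalling genes elsewhere in the genome were read beside the cluster. Of 8 measured genes of 13 on this list, 4 were called lower and 0 higher in T15-2 against HCC827 with DMSO (median -0.18), where 16.3% of all genes were called lower and 15.9% higher. IRF9, a DNA-binding factor of interferon signalling, differed by -2.15 ± 0.09 (adjusted p = 8.2e-13) and IFNLR1, the ligand-specific chain that pairs with IL10RB, by -0.80 ± 0.12 (adjusted p = 3.5e-05). IFNGR1, the partner of IFNGR2, differed by 0.02 ± 0.09 (adjusted p = 0.87) and JAK1 by 0.03 ± 0.09 (adjusted p = 0.83). In ER3 against HCC827 with DMSO, IFNLR1 was higher by 0.75 ± 0.12 (adjusted p = 7.2e-05) and IRF9 changed by -1.01 ± 0.09 (adjusted p = 9.0e-08).

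Of 25 interferon-stimulated genes, 23 were measured, and 21 were called lower and 1 higher in T15-2 against HCC827 with DMSO (median -1.57 against 0.01 over all genes). Of all genes, 16.3% and 15.9% were called there. In ER3 against HCC827 17 were called lower and 1 higher (median -0.91), where 19% and 16.0% of all genes were called. The largest differences in T15-2 were those of OAS2 (-4.14 ± 0.10), IFI27 (-4.11 ± 0.15), OAS1 (-4.09 ± 0.13) and MX1 (-3.61 ± 0.10). IFI27 and the OAS genes lie outside chromosome 21, while MX1 and MX2 lie within the stretch of the listed genes. MX1 measured 14.21, 14.02 and 14.05 in HCC827, 12.24, 12.24 and 12.35 in ER3 and 10.52, 10.44 and 10.51 in T15-2 with DMSO. The order HCC827, ER3, T15-2 was the same for MX1 as for IL10RB, IFNGR2 and the brightest probe of IFNAR2, in groups that did not overlap. It did not hold for the other detected probe of IFNAR2 (6.77 in ER3 and 6.84 in T15-2), and IFNAR1 overlapped between ER3 and T15-2. The T15-2 values of the receptor genes chose them, so this order supports nothing further. Whether the receptor levels bear on the interferon-stimulated genes was not tested.

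Among the genes for transcription and chromatin, 13 of 14 were measured, with a median difference between T15-2 and HCC827 of -0.41 (11 lower) with DMSO. ETS2, an ETS family transcription factor, measured 6.97, 6.80 and 6.91 in HCC827, 6.64, 6.73 and 6.79 in ER3 and 5.75, 5.93 and 6.03 in T15-2. T15-2 lay below both other lines, by 1.98-fold against HCC827 (-0.99 ± 0.11). HMGN1, a nucleosome-binding protein and the brightest of the 48 genes, measured 13.14, 13.20 and 13.13 in HCC827 and 12.30, 12.23 and 12.32 in T15-2, a difference of -0.88 ± 0.09. Its other probe gave -0.94. PAXBP1, an adaptor of PAX3 and PAX7 (-0.79 ± 0.11, other probes -0.37 and -0.45), GABPA (-0.67 ± 0.11) and MORC3, an ATPase of nuclear bodies (-0.46 ± 0.13), were lower too. SETD4 (-0.41 ± 0.08), DONSON (-0.35 ± 0.09) and SCAF4, which acts in transcript termination (-0.16 ± 0.10), complete the lower genes of this group with those described next.

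BRWD1, a bromodomain protein, differed between the probes that cover it. The brightest probe measured 7.52, 7.60 and 7.55 in HCC827, 8.06, 8.06 and 8.08 in ER3 and 6.94, 6.97 and 7.05 in T15-2. This put ER3 above HCC827 and T15-2 below it, without overlap. The 2 other probes above background on all arrays gave -0.30 and 0.31 for T15-2 against HCC827. SON, a splicing cofactor with 6 kept probes, was between -0.25 and -0.56 with all of them. RUNX1, a transcription factor, differed by -0.20 ± 0.10 between T15-2 and HCC827. Its relative RUNX2, which lies elsewhere, was called higher in T15-2 by 1.09 ± 0.11 (adjusted p = 4.0e-07) and in ER3 by 1.33 ± 0.11 (adjusted p = 2.5e-08).

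All 6 genes for kinases and signalling were measured, with a median difference between T15-2 and HCC827 of -0.45 with DMSO. The differences were below 0 for all 6. That of ITSN1 was within 1 SE of 0 with its brightest probe and -0.43 with its other kept probe. DYRK1A, a kinase that phosphorylates NFAT factors among others, measured 8.32, 8.43 and 8.22 in HCC827, 8.11, 8.39 and 8.16 in ER3 and 7.87, 7.81 and 7.99 in T15-2. T15-2 lay below both other lines (-0.43 ± 0.11 against HCC827). RCAN1, an inhibitor of the phosphatase calcineurin, differed by -0.47 ± 0.13, and SYNJ1, a phosphoinositide phosphatase, by -0.78 ± 0.16. RIPK4, a kinase of epithelial differentiation, differed by -0.47 ± 0.10 from HCC827 but by 0.15 from ER3. Of 11 measured partners of these kinases and of the factors above, 2 were called higher (RUNX2, and NFATC3 by 0.41 ± 0.11) and 1 lower (the calcineurin subunit gene PPP3CB by -0.32 ± 0.09, adjusted p = 0.0082) in T15-2 against HCC827, where 15.9% and 16.3% of all genes were called.

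Of the 10 genes for redox reactions and metabolism, 8 were measured, with a median difference of -0.21 (7 lower) with DMSO. SOD1, the cytosolic superoxide dismutase, measured 11.98, 11.91 and 11.99 in HCC827 and 11.81, 11.72 and 11.74 in T15-2, a small difference of -0.20 ± 0.09 without overlap. CBS, the first enzyme of transsulfuration, differed by -0.20 ± 0.10 with all 6 T15-2 arrays below the other 12. The carbonyl reductase genes CBR1 and CBR3 differed by -0.23 ± 0.14 and -0.30 ± 0.11, and CRYZL1, a quinone oxidoreductase-like gene kept apart from this group, by -0.16 ± 0.09. SLC37A1, a sugar phosphate transporter of the endoplasmic reticulum, was not above background on any T15-2 array with DMSO and was at least 1.84-fold lower than in HCC827. Such a bound sets the bright group's mean against the higher, per array, of the lowest detected signal and the dim probe's own. Of 6 measured superoxide, peroxide and carbonyl enzymes elsewhere, 2 were called higher and 0 lower in T15-2 against HCC827 with DMSO, where 15.9% and 16.3% of all genes were. The 2 were GPX1 by 0.58 ± 0.11 (adjusted p = 0.00039) and SOD2, the mitochondrial superoxide dismutase, by 0.40 ± 0.11 (adjusted p = 0.010).

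GART, which catalyses several steps of de novo purine synthesis, measured 9.90, 10.03 and 10.04 in HCC827, 10.02, 10.06 and 10.01 in ER3 and 9.66, 9.66 and 9.78 in T15-2 with DMSO. T15-2 was lower without overlap (-0.29 ± 0.08 against HCC827). Of 8 listed enzymes of the same pathway elsewhere in the genome, 6 were measured. In T15-2 against HCC827 with DMSO 2 were called higher and 0 lower, where 15.9% and 16.3% of all genes were. The 2 were IMPDH2 by 0.72 ± 0.09 (adjusted p = 2.4e-06) and PPAT by 0.48 ± 0.12 (adjusted p = 0.0039). Against ER3 with DMSO 4 were called higher, where 17.8% of all genes were, and with erlotinib all 6 were called higher than in HCC827, where 21.9% were.

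All 11 genes for protein turnover and trafficking were measured, with a median difference between T15-2 and HCC827 of -0.47 with DMSO and -0.48 with erlotinib. The differences were below 0 for all 11, though TRAPPC10 with DMSO (-0.02) and LTN1 with erlotinib (-0.04) were within 1 SE of 0. TMEM50B, a membrane protein of the secretory pathway, measured 9.06, 9.25 and 9.06 in HCC827, 8.68, 8.55 and 8.78 in ER3 and 7.99, 8.26 and 8.26 in T15-2, so that the 3 lines did not overlap (-0.95 ± 0.10, or 1.94-fold, between T15-2 and HCC827). A dimmer probe of TMEM50B gave -0.07. VPS26C, a subunit of the retriever complex, measured 7.81, 7.98 and 7.86 in HCC827, 7.89, 7.82 and 7.83 in ER3 and 7.39, 6.96 and 7.27 in T15-2. HCC827 and ER3 overlapped and T15-2 lay below both. TTC3, a ubiquitin ligase, differed by -0.63 ± 0.11, GET1, a receptor for tail-anchored membrane proteins, by -0.63 ± 0.14, USP16, a deubiquitinase of histone H2A, by -0.57 ± 0.14, and PSMG1, a proteasome assembly chaperone, by -0.47 ± 0.08. CSTB, an inhibitor of cathepsins, differed by -0.46 ± 0.11 and LTN1, the ubiquitin ligase of stalled ribosomes, by -0.28 ± 0.11. DOP1B, linked to endosome traffic, differed by -0.18 ± 0.11 with its brightest probe and by -0.46 with its other kept probe. Other kept probes gave -0.24 for GET1, -0.54 for USP16, -0.59 for PSMG1 and -0.08 for LTN1.

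Of the 7 genes for membrane proteins and proteases 4 were measured. APP, the amyloid precursor protein, measured 11.24, 11.22 and 11.19 in HCC827, 11.48, 11.26 and 11.47 in ER3 and 10.90, 10.88 and 11.01 in T15-2, which was lowest without overlap (-0.28 ± 0.09 against HCC827). Of 8 measured genes of APP processing elsewhere, including the secretase subunits, 0 were called in either direction in T15-2 against HCC827 with DMSO by limma at an adjusted p below 0.05, and 0 passed an unadjusted p below 0.05. TMPRSS2, a serine protease, was above background on all HCC827 arrays and on 0 arrays of ER3 and T15-2. It was at least 1.15-fold lower in T15-2 than in HCC827 with DMSO and at least 1.62-fold lower with erlotinib. ICOSLG, the ligand of the T cell costimulator ICOS, differed by -0.57 ± 0.13 with DMSO. ADAMTS1, a secreted metalloprotease, went the other way: it measured 5.32, 5.46 and 5.01 in HCC827, 5.76, 5.42 and 6.01 in T15-2 and 6.23, 6.22 and 6.14 in ER3, so that T15-2 overlapped with HCC827. It was the gene of the list with the largest difference in the opposite direction with erlotinib, at 1.20 ± 0.14, where it was above background on 1 of 3 HCC827 arrays. WDR4, a subunit of a transfer RNA methyltransferase, was the gene of the RNA group that was measured and differed by -0.44 ± 0.08 with DMSO.

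The gene pairs that share a promoter stretch, printed above, differed together in T15-2 with DMSO for most pairs and in opposite directions for SLC5A3 and MRPS6. GABPA (-0.67) and ATP5PF (-0.54) were both lower in T15-2 than in HCC827 with DMSO, and TTC3 (-0.63) and PIGP (-0.47) were as well. SON (-0.41) and GART (-0.29) were both lower with DMSO. With erlotinib the brightest probe of GART was higher in T15-2 than in HCC827 (0.34), while SON was not (-0.12). The other kept probe of GART gave -0.005 there, so this contrast with SON rests on 1 probe. MRPS6 measured 12.08, 11.95 and 11.99 in HCC827 and 11.56, 11.44 and 11.55 in T15-2, a difference of -0.49. SLC5A3, the inositol transporter gene with the same start and window, measured 5.58, 5.42 and 5.12 in HCC827 and 5.82, 6.01 and 5.76 in T15-2, a difference of 0.49 ± 0.12. With DMSO the 2 genes lay on opposite sides, each without overlap between T15-2 and HCC827. PIGP had another detected probe, which gave 0.09 against HCC827.

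**Figure D4:**
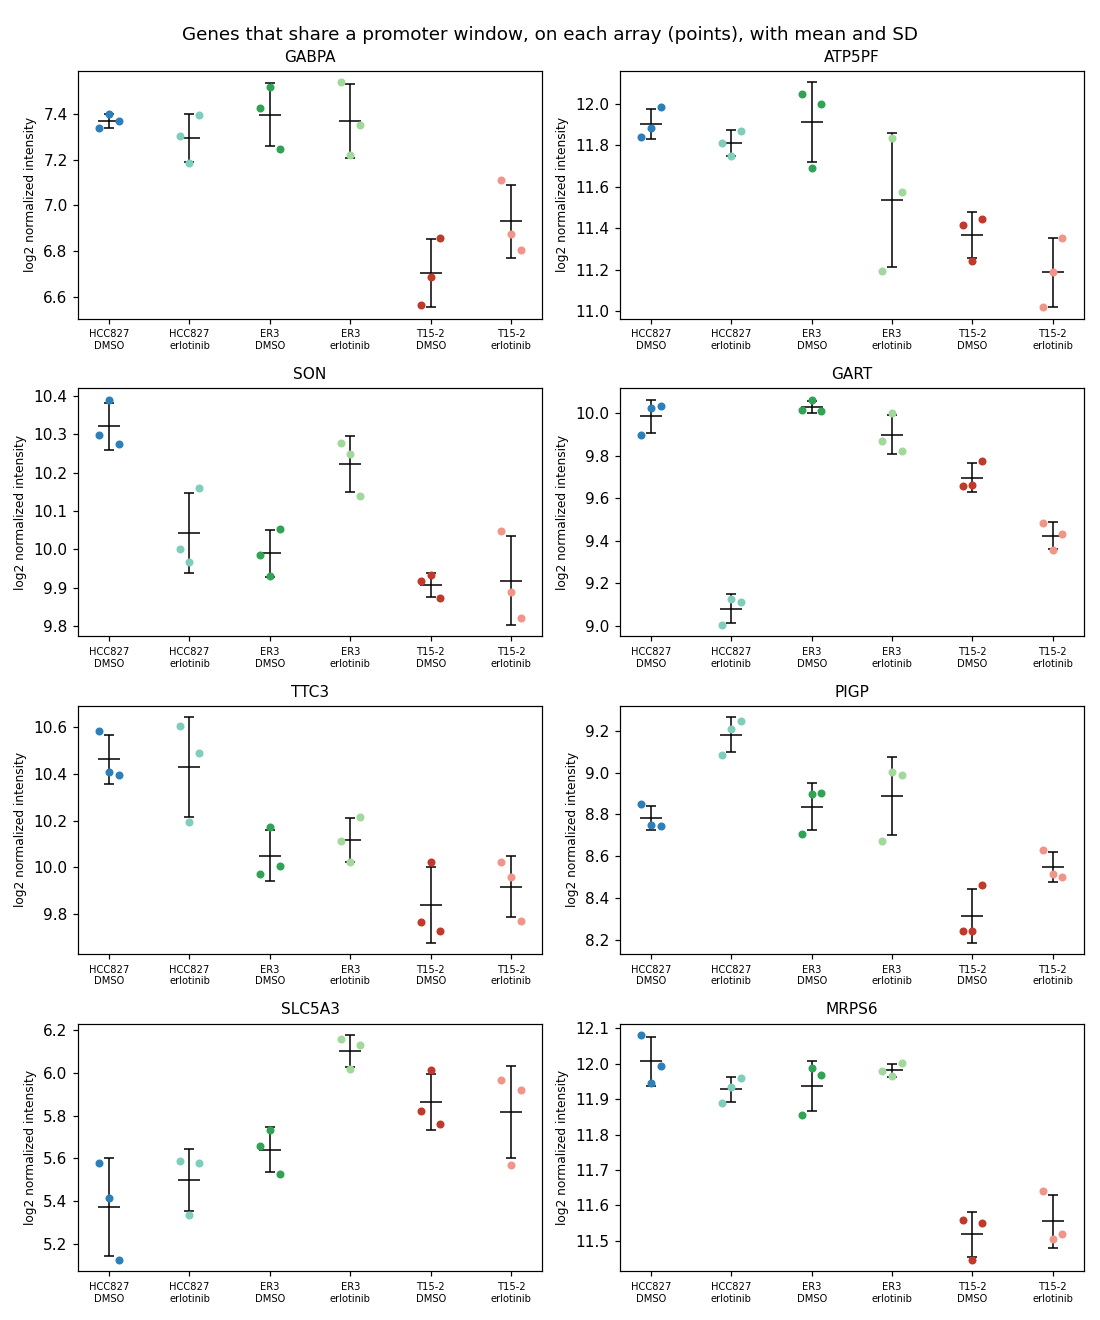
Log2 normalized intensity (y axis) on each array (points), with the mean and SD of 3 arrays, for 4 pairs of genes that share a promoter stretch, 1 pair per row, in the 6 groups (x axis). MRPS6 is lower and SLC5A3 higher on the T15-2 arrays than on the HCC827 arrays with DMSO, and GART falls with erlotinib in HCC827 while its neighbour SON falls less.

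The list was not chosen on ER3 against HCC827, which was tested. With DMSO 15 of the 48 genes were called lower (31.2%) and 4 higher (8.33%), where 19% of all genes were called lower and 16.0% higher. The median of the 48 was -0.10, against -0.02 for all genes. SLC37A1 (-0.76 ± 0.13, adjusted p = 0.00015), RIPK4 (-0.62 ± 0.10, adjusted p = 6.2e-05), RUNX1 (-0.49 ± 0.10, adjusted p = 0.00092) and TMPRSS2 (at least 1.13-fold lower, adjusted p = 5.2e-05) were called lower. These calls held under the 27 alternatives run (26 for TMPRSS2). TMEM50B (-0.45 ± 0.10, adjusted p = 0.0016) lost its call with the mean of its probes (adjusted p = 0.32). ADAMTS1 was higher by 0.93 ± 0.14 (adjusted p = 4.0e-05) under all 27 alternatives, and BRWD1 by 0.51 ± 0.08 (adjusted p = 3.6e-05), which was lost with median scaling (adjusted p = 0.26).

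With erlotinib 12 genes were called lower in ER3 than in HCC827 and 11 higher (25% and 22.9%), where 23% and 21.6% of all genes were called. ADAMTS1 was higher by 1.56 ± 0.14 (adjusted p = 3.0e-08), ZBTB21, a zinc finger protein, by 1.14 ± 0.17 (adjusted p = 1.8e-05), GART by 0.82 ± 0.08 (adjusted p = 1.1e-07) and WDR4 by 0.78 ± 0.08 (adjusted p = 3.1e-07). Of the 3 HCC827 arrays with erlotinib, ADAMTS1 was above background on 1. CBR3, a carbonyl reductase, differed by -0.72 ± 0.11 (adjusted p = 2.1e-05) and ETS2 by -0.70 ± 0.11 (adjusted p = 2.3e-05). The 12 lower genes include TMPRSS2 (at least 1.61-fold lower), which passed the filter only through the HCC827 arrays and is given as a description. The shares called were near those of all genes.

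Erlotinib lowered 13 of the 48 genes and raised 8 in HCC827 (27.1% and 16.7%), where 18.5% of all genes fell and 19.2% rose. The HCC827 arrays may have entered the choice of the genes, so these counts are not independent of it. WDR4 measured 9.41, 9.47 and 9.60 with DMSO and 8.05, 8.09 and 7.96 with erlotinib, a fall of 2.75-fold (-1.46 ± 0.08, adjusted p = 1.3e-10). GART measured 9.90, 10.03 and 10.04 with DMSO and 9.00, 9.12 and 9.11 with erlotinib, a fall of 1.88-fold (-0.91 ± 0.08, adjusted p = 5.8e-08). Neither overlapped between the treatments. ZBTB21 (-0.78 ± 0.17, adjusted p = 0.0012), ICOSLG (-0.71 ± 0.13, adjusted p = 0.00024), TIAM1, an activator of the GTPase RAC1 (-0.62 ± 0.13, adjusted p = 0.00068), and ADAMTS1 (-0.55 ± 0.14, adjusted p = 0.0046) fell as well. With erlotinib ADAMTS1 was above background on 1 of the 3 HCC827 arrays. CBR3 rose most, from 7.28, 7.30 and 7.18 to 7.83, 8.11 and 7.86 (0.68 ± 0.11, adjusted p = 6.0e-05). TMPRSS2 rose by 0.47 ± 0.10 (adjusted p = 0.00098). APP (0.48 ± 0.09), ETS2 (0.44 ± 0.11) and PIGP (0.40 ± 0.10) rose in the same test, and each lost its call with median scaling (adjusted p = 0.26, 0.17 and 0.39).

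Of the 6 measured purine genes elsewhere, 5 fell and 0 rose with erlotinib in HCC827 (median -0.44, against 0.01 for all genes), led by PFAS (-0.98 ± 0.09, adjusted p = 1.1e-07) and PPAT (-0.84 ± 0.12, adjusted p = 1.5e-05). In ER3 and T15-2, 0 of the 6 were called by limma in either direction (at an unadjusted p below 0.05, 1 was lower in ER3 and 4 in T15-2, and 0 were higher in either), where GART differed by -0.13 and -0.27. The response of PFAS differed from that in HCC827 by 0.79 ± 0.13 in ER3 (adjusted p = 0.00031) and by 0.77 ± 0.13 in T15-2 (adjusted p = 0.00066). Among 8 measured genes of APP processing, 3 rose with erlotinib in HCC827, namely the secretase subunit genes NCSTN (0.50) and APH1A (0.42) and the APP relative APLP2 (0.50), and PSEN2 fell by 0.46 on the log2 scale. Among the 11 partners 2 rose and 3 fell, including CBFB, the shared partner of RUNX factors (-0.82), and GABPB1, the partner of GABPA (-0.58). Among the 6 superoxide, peroxide and carbonyl enzymes 4 rose and 1 fell. Of all genes, 19.2% rose and 18.5% fell with erlotinib in HCC827.

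In ER3 erlotinib raised 1 of the 48 genes, SLC5A3 (0.46 ± 0.12, adjusted p = 0.045), and lowered 2, TMEM50B (-0.45 ± 0.10, adjusted p = 0.020) and SETD4 (-0.33 ± 0.08, adjusted p = 0.037), a methyltransferase. In all genes 2.01% rose and 1.74% fell. All 3 calls were lost without ER3 DMSO replicate 1, without ER3 DMSO replicate 3 or without ER3 erlotinib replicate 3 (0 calls each), and the count was 1 without ER3 erlotinib replicate 1 or replicate 2. In T15-2 erlotinib raised IL10RB and ETS2 (0.36 ± 0.11, adjusted p = 0.045) and lowered 4 genes, where 4.43% of all genes rose and 4.00% fell. The 4 were WDR4 (-0.55 ± 0.08, adjusted p = 0.00050), TIAM1 (-0.48 ± 0.13, adjusted p = 0.026), DONSON, a replication factor (-0.34 ± 0.09, adjusted p = 0.025), and GART (-0.27 ± 0.08, adjusted p = 0.044). The count of 6 was 2 without T15-2 erlotinib replicate 1, and 3 without T15-2 erlotinib replicate 3, T15-2 DMSO replicate 1 or T15-2 DMSO replicate 2. The call of IL10RB held under all 27 alternatives, and that of WDR4 under all but median scaling (adjusted p = 0.14). The calls of TIAM1, DONSON, GART and ETS2 were lost under 6, 7, 15 and 16 of the 27.

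The response to erlotinib differed between ER3 and HCC827 for 14 of the 48 genes, 9 with a higher and 5 with a lower value in ER3 (18.8% and 10.4%), where 11.6% and 10.4% of all genes were called. It differed between T15-2 and HCC827 for 11, of which 8 were higher and 3 lower (16.7% and 6.25%), where 7.17% and 5.90% of all genes were. These comparisons share the HCC827 arrays, which may also have entered the choice of the genes. Both counts of lower responses include TMPRSS2, which was above background on 0 arrays of either subline, so that its response there was not measured. Without it 13 and 10 genes were called. The count in ER3 was 9 without HCC827 erlotinib replicate 1, HCC827 erlotinib replicate 2 or ER3 DMSO replicate 3. In T15-2 it was 6 without HCC827 erlotinib replicate 2 or T15-2 erlotinib replicate 2, and 7 without HCC827 DMSO replicate 1 or T15-2 erlotinib replicate 1.

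The difference was largest for WDR4, whose response was 1.21 ± 0.12 higher in ER3 (adjusted p = 9.2e-07) and 0.91 ± 0.12 higher in T15-2 (adjusted p = 4.5e-05) than in HCC827. For GART it was 0.78 ± 0.12 (adjusted p = 0.00011) and 0.63 ± 0.12 (adjusted p = 0.0013). The calls of these 2 genes held in both sublines under all 27 alternatives. With median scaling the median of all genes in the ER3 and T15-2 response differences moved to 0.25 and 0.24, and the calls then split 16 higher and 0 lower in ER3 and 12 higher and 0 lower in T15-2. The lower responses of CBR3 (-0.75 ± 0.15 in ER3, adjusted p = 0.0019, and -0.57 ± 0.15 in T15-2, adjusted p = 0.020) and of APP (-0.40 ± 0.12, adjusted p = 0.026, and -0.44 ± 0.12, adjusted p = 0.024) lost their calls under that scaling (adjusted p = 0.15 and 0.42 for CBR3, and 0.91 and 0.86 for APP).

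**Figure D5:**
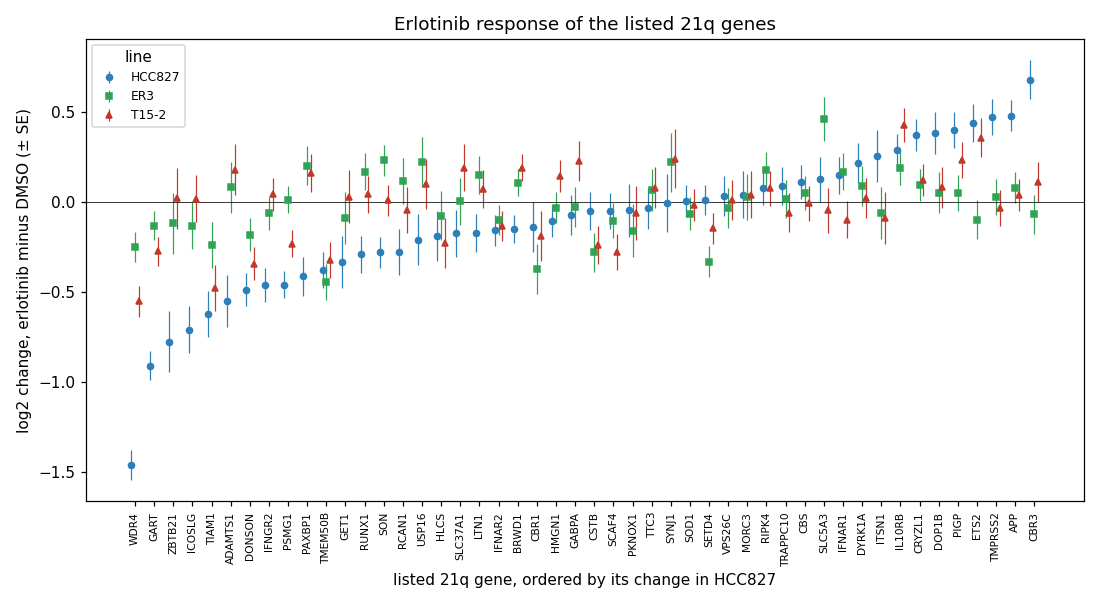
Log2 change with erlotinib (y axis, erlotinib minus DMSO, with SE) of the 48 measured genes (x axis, ordered by the change in HCC827) in HCC827, ER3 and T15-2. WDR4 and GART lie far below 0 in HCC827, at -1.46 and -0.91, and closer to 0 in both sublines.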

How the data were processed

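Expression in 18 samples was measured on Illumina BeadChips from biotin-labelled RNA. The deposited non-normalized table gives each probe's signal intensity and its detection p-value on every array, per the file headers. The submitters' processing notes name BeadStudio without a version. The authors' processed intensity values, deposited for 48797 probes, served as an alternative. On each array they rank probes as the raw intensities do, with array medians of 57.69 to 57.71; their making is not stated.

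The neqc function (limma 3.58.1, R 4.3.3) corrected the background, with an offset of 16, and quantile-normalized the arrays on the log2 scale. Probes with a detection p-value below 0.05 on at least 3 arrays were kept (19931), and the brightest kept probe stood for its gene. Symbols came from the platform annotation, updated through the RefSeq table of GRCh38.p14. The files name no build, so genes are given in map order only.

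All 11820 genes entered 1 limma model with a mean for each of 6 groups, over the 18 arrays. The call was an adjusted p below 0.05 (Benjamini-Hochberg over all genes, within each comparison). The listed genes were tested in 7 comparisons, and genes outside the list also in the 4 of T15-2 with another line. The script was tested on simulated data. The genes and the lists of partner genes were chosen with earlier results of these data known. The rule for named genes took the 4 receptors, the 8 most and 6 least negative differences between T15-2 and HCC827, up to 6 called genes per direction and tested comparison, genes by role, neighbours on 21q, up to 4 genes per partner list and comparison, and EGFR and MET. Alternatives were other scalings and background settings, the authors' values, other filters and probe rules, fits of the compared groups alone, the replicate number as a block and leaving out arrays. Arrays could not be blocked by BeadChip because their chips are unknown here.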

Additional observations from a re-analysis of the deposited data

Results flagged for a closer look

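Genes are given here because the test of the difference itself found their erlotinib response to differ between a subline and HCC827. Values are log2 differences of response, subline minus HCC827, with limma's adjusted p. In ER3 the response was higher for WDR4 (1.21, adjusted p = 9.2e-07), GART (0.78, adjusted p = 0.00011), ADAMTS1 (0.63, adjusted p = 0.031), PAXBP1 (0.61, adjusted p = 0.0068), ICOSLG (0.58, adjusted p = 0.031) and SON (0.51, adjusted p = 0.0054). It was lower for CBR3 (-0.75, adjusted p = 0.0019), ETS2 (-0.54, adjusted p = 0.016), APP (-0.40, adjusted p = 0.026) and SETD4 (-0.34, adjusted p = 0.047). In T15-2 it was higher for WDR4 (0.91, adjusted p = 4.5e-05), ZBTB21 (0.80, adjusted p = 0.034), ADAMTS1 (0.73, adjusted p = 0.022), ICOSLG (0.73, adjusted p = 0.014), GART (0.63, adjusted p = 0.0013) and PAXBP1 (0.57, adjusted p = 0.017), and lower for CBR3 (-0.57, adjusted p = 0.020) and APP (-0.44, adjusted p = 0.024).

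Among these, the calls of WDR4 and GART in both sublines and of ICOSLG in T15-2 held under each of the 27 alternatives. The PAXBP1 calls were lost with the mean of its probes (adjusted p = 0.18 in ER3 and 0.24 in T15-2), and in T15-2 also without HCC827 erlotinib replicate 2 (0.053) or T15-2 erlotinib replicate 1 (0.054). The SON call was lost with the mean of its probes (0.16), and that of ETS2 with median scaling (0.56) or without HCC827 erlotinib replicate 2 (0.051). CBR3 in T15-2 was lost with median scaling (0.42) or without HCC827 erlotinib replicate 2 (0.062). The call of SETD4 in ER3 was lost under 18 alternatives (adjusted p up to 0.94), that of ICOSLG under 9 (up to 0.087), and ADAMTS1 and APP under 6 each (up to 0.092 and 0.91). In T15-2, ZBTB21 was lost under 10 alternatives (up to 0.10), APP under 6 (up to 0.86) and ADAMTS1 under 5 (up to 0.070). Both ADAMTS1 results rest on HCC827 arrays with erlotinib of which 1 of 3 was above background for it. TMPRSS2 is left out here, since it was above background on 0 arrays of either subline and has no measured response there.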

How the results depend on the processing

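The median difference of the 48 genes kept its negative sign in all 4 comparisons of T15-2 under every alternative run. For T15-2 minus HCC827 with DMSO it was -0.62 with median scaling, -0.37 with no background correction or with the authors' values, and -0.41 with no filter on dim probes or with the mean of a gene's probes. Median scaling moved the median of all genes to -0.12 there, and relative to it the 48 genes lay at -0.50. For T15-2 minus ER3 with DMSO it was -0.24 with median scaling, -0.29 with no background correction or the authors' values and -0.37 when the 2 arrays farthest apart within their groups were dropped, a choice made after seeing the data (replicate 2 of ER3 with DMSO, replicate 3 of T15-2 with erlotinib). With erlotinib it was -0.21 against HCC827 with median scaling, where all genes moved to 0.10, -0.27 with no filter, and -0.30 against ER3 with median scaling. Leaving out 1 array at a time gave -0.45 to -0.43, -0.37 to -0.31, -0.37 to -0.34 and -0.40 to -0.34 in the 4 comparisons, in the order of the report.

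The count of genes called was 13 to 21 for ER3 against HCC827 with DMSO when 1 array was left out, 20 to 25 with erlotinib, 18 to 23 for erlotinib in HCC827, 0 to 3 in ER3, 2 to 8 in T15-2, and 9 to 15 and 6 to 12 for the response differences of ER3 and T15-2. For erlotinib in ER3 the count of 3 became 1 with median scaling and 0 with the compared groups alone, and in T15-2 the count of 6 became 1 and 2 in these settings and 3 without those 2 arrays. With median scaling the calls split 23 lower and 1 higher for ER3 against HCC827 with DMSO (all genes at -0.22), 7 lower and 10 higher with erlotinib, and 15 lower and 2 higher for erlotinib in HCC827 (all genes at -0.10). With no background correction, calls for erlotinib split 1 lower and 1 higher in ER3 and 6 lower and 1 higher in T15-2. CRYZL1, called higher in ER3 with DMSO (0.28, adjusted p = 0.018), reversed to -0.0095 with median scaling (adjusted p = 0.97) and lost its call without HCC827 DMSO replicate 3 (adjusted p = 0.13). The causes were not tested. Of 63 calls of single genes recomputed, 30 held under every alternative.

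The replicate numbers did not pair the arrays: of 45 pairs of same-numbered arrays 7 correlated above 0.1 (range -0.40 to 0.27), and 2 of 18 arrays correlated best with their own number. With the replicate number as a block the medians stayed at -0.45, -0.33, -0.34 and -0.37, and the counts were 19, 23, 21, 2, 4, 13 and 10. With 3 arrays per group and dim probes for TMPRSS2 and SLC37A1, small differences of dim genes were not detectable.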
